A study of Mus musculus with 6 samples.

Results

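A set of 10 genes of the inflammasome and of interleukin-1 (IL-1) signalling was followed in the hippocampus of mice with narrowed carotid arteries: Nlrp3, Pycard, Casp1, Casp4, Gsdmd, Il1a, Il1b, Il18, Il1rn and Il1r1. They were matched by gene symbol to the Ensembl identifiers of the count tables, and all 10 were found among 54752 genes. RNA was sequenced from the right hippocampus of male C57BL/6 (C57BL/6 J in the methods) wild-type (WT) mice, all labelled 14 weeks of age, with 3 sham mice and 3 mice with bilateral carotid artery stenosis (BCAS). In BCAS a wire microcoil is wound around each common carotid artery, the narrower coil on the right, so that less blood reaches the brain for a long time, while the sham operation left the coils out. Tissue was taken 3 weeks after surgery, and each library came from 1 mouse. The model narrows the arteries from outside in animals with no other alteration, and both groups share strain, sex, genotype and age.

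An inflammasome is a protein platform that assembles in the cytosol when a sensor such as NLRP3 meets a danger signal, binds the adaptor ASC (gene Pycard) and activates caspase-1. Caspase-1 cuts the precursors of IL-1β and IL-18 and also gasdermin D, whose freed part forms pores through which these cytokines leave the cell, and caspase-11 (gene Casp4) cuts gasdermin D after it has bound bacterial lipopolysaccharide. IL-1α and IL-1β act on the same receptor, IL1R1, which the antagonist encoded by Il1rn occupies without signalling. In the brain, microglia are the main source of the platform, while the receptor is found on endothelial, choroid plexus and some neuronal cells. These genes act through cutting and release of proteins, which RNA counts do not measure.

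The libraries held 29652456 to 35607098 counts on genes. Values are given as CPM, counts scaled to a common library total with TMM factors, which allow for differences in composition, and 3 counts, the limit that a count of 0 allows, equalled 0.0875 to 0.0995 CPM. All 10 genes passed the filter on low counts, as did 18617 genes in all. A gene was called when its adjusted P was under 0.05 and its absolute log2 fold change above 1 in edgeR's quasi-likelihood test, the thresholds of a differentially expressed gene in the study. Marker genes fitted a hippocampal sample: the neuronal genes Snap25 and Slc17a7 had 591 CPM or more in every library, and the hippocampal markers Prox1 and Neurod6 were present in all 6. Choroid plexus markers, which belong to the tissue that lines the neighbouring ventricle, varied widely inside both groups, with Ttr at 38.0 to 3773 CPM in sham mice and 23.7 to 5461 CPM in BCAS mice.

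Of the 10 genes, 8 were higher in BCAS mice past both thresholds and 0 were lower. Among all tested genes 8.47% were called higher and 0.999% lower. The 8 were Nlrp3, Pycard, Casp1, Casp4, Gsdmd, Il1a, Il1b and Il1rn. The call of Il1b held under 10 of 17 alternatives to the edgeR fit, and in 2 of the 6 that left out 1 mouse. Il1r1 was higher by the adjusted P alone, a side of the test that held 18.0% of all tested genes, and Il18 did not pass. The median log2 fold change was 2.66 over the 10 genes and 0.018 over all tested genes. For 8 of the 10, every BCAS mouse lay above every sham mouse, against 25.3% of tested genes, and the exceptions were Il1b and Il18. The summed level of the 10 genes was 41.0 to 43.2 CPM in sham mice and 88.8 to 113 CPM in BCAS mice, and Il18 and Il1r1, which were not called, made up most of it in sham mice.

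**Figure D1:**
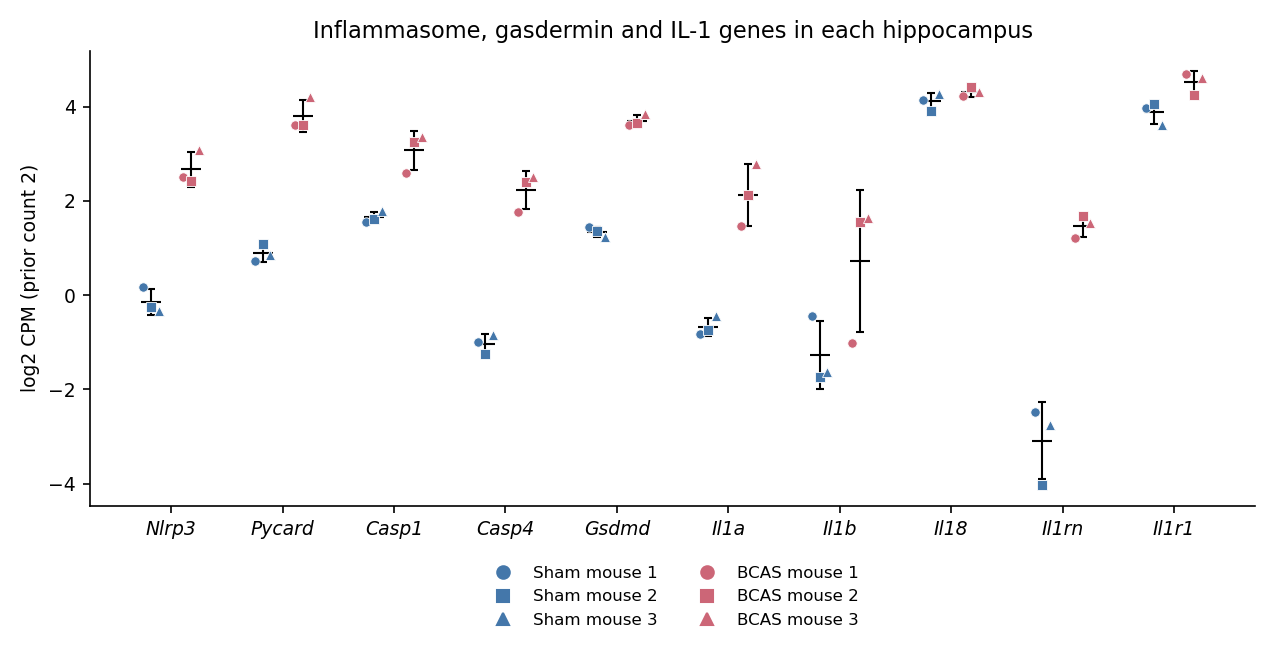
Level of each of the 10 genes in each library, as log2 CPM with a prior count of 2 on the vertical axis, with 1 point per mouse and bars for the mean and SD of 3 mice. BCAS points lie above all sham points except for Il1b, where BCAS mouse 1 lies among the sham mice, and Il18, where the groups overlap.

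Start sites of 9 of the 10 genes were found among RefSeq promoter windows of build GRCm38.p6, which is mm10, with 14 windows of 300 bases that run from 250 bases before to 50 after a start. The sequences of 4 windows are shown because they set more and less raised genes side by side. Casp4 and Casp1 are paralogs next to each other on chromosome 9. Il1rn had the largest fitted change of the 10 genes, and Il18 did not pass the test. Where a gene has several windows, the last one in the table is shown. They are written 5′ to 3′ along the gene, and capitals mark matches to GGG and CC with 5 bases of any kind between them, a loose form of the motif bound by NF-kappa B, searched on both strands with overlapping matches counted.
Casp4, chr9:5308610-5308909, plus strand: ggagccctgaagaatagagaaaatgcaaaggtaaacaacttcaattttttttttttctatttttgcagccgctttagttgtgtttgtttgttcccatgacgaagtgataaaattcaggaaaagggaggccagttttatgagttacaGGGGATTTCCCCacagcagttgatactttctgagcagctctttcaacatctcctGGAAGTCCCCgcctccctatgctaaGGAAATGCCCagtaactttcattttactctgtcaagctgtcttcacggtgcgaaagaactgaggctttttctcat
Casp1, chr9:5298267-5298566, plus strand: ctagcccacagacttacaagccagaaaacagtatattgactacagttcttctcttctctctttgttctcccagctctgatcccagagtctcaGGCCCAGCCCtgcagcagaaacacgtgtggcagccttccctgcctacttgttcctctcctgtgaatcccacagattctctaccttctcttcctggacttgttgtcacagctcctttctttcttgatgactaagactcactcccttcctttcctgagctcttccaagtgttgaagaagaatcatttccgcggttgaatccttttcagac
Il1rn, chr2:24345121-24345420, plus strand: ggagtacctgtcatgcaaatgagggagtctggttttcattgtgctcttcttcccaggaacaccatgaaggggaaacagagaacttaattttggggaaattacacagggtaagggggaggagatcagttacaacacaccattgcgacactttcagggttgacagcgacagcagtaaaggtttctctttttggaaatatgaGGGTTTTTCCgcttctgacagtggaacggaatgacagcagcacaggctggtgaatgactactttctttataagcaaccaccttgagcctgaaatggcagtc
Il18, chr9:50554450-50554749, plus strand: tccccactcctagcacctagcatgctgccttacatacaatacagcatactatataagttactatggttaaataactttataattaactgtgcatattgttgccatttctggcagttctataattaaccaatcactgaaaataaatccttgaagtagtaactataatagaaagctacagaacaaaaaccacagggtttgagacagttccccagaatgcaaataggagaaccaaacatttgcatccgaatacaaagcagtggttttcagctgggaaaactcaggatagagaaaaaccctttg
The Casp4 window held 5 start positions of this motif, 3 of them overlapping in a single run, and 3.16% of the 32851 windows held as many. The Casp1 window held 1 such position, as did the Il1rn window shown, and the Il18 window had none. Another Il1rn window, chr2:24336610-24336909, held 2 positions, and 27.4% of windows held as many. At least 1 match was found in 9 of the 14 windows, from 5 of the genes (Il1r1, Il1rn, Casp1, Casp4 and Nlrp3), and in 50.8% of all windows. The interferon-stimulated response element core, GAAA and GAAA with 2 bases of any kind between them, held by 3.44% of all windows, and the gamma-activated sequence TTCNNNGAA, held by 8.30%, were found in 0 of the 14. GAGGAAGT, a motif bound by the myeloid factor PU.1 and held by 3.20% of windows, was found in 1, that of Pycard. A match describes letters in a window and not a site in use.

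The sensor and the adaptor of the platform rose by similar factors. Nlrp3 (ENSMUSG00000032691.14, chr11:59541568-59566956 on the plus strand of mm10) encodes the sensor that answers to potassium loss, crystals and damaged mitochondria. It had 36, 26 and 25 counts in sham mice 1 to 3, which equals 1.06, 0.778 and 0.729 CPM. In BCAS mice 1 to 3 it had 182, 159 and 263 counts, or 5.60, 5.27 and 8.43 CPM. BCAS mouse 3 was the highest and all 3 BCAS mice lay well above the sham mice. Nlrp3 changed by 2.90 on the log2 scale, with a standard error of 0.27 and a 95% confidence interval of 2.29 to 3.52 (edgeR adjusted P = 1.19e-04).

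Pycard (ENSMUSG00000030793.4, chr7:127989708-127993867 on the minus strand) encodes ASC, whose polymers form the visible speck of an active inflammasome. Its level was 1.59, 2.07 and 1.75 CPM in sham mice, from 54, 69 and 60 counts. It was 12.1, 12.1 and 18.3 CPM in BCAS mice, from 394, 366 and 571 counts. BCAS mouse 3 again stood above the other BCAS mice, which lay at the same level, and the groups did not overlap. For Pycard edgeR gave a log2 fold change of 2.97, with a standard error of 0.22 and a 95% confidence interval of 2.48 to 3.46 (adjusted P = 3.44e-05). Of its exon bases, 485 (12.8%) are shared with the antisense gene Gm45205, and strand was not used in counting.

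The caspases of the platform rose by unequal factors. Casp1 (ENSMUSG00000025888.5, chr9:5298517-5307265 on the plus strand), the caspase of the canonical platform, had 2.86, 3.02 and 3.38 CPM in sham mice, from 97, 101 and 116 counts. In BCAS mice it had 5.97, 9.48 and 10.2 CPM, from 194, 286 and 318 counts. BCAS mouse 1 had the smallest rise, and it still lay above every sham mouse. Casp1 changed by 1.47 on the log2 scale (standard error 0.22, 95% confidence interval 0.96 to 1.97, edgeR adjusted P = 0.0016), the smallest change among the 8 called genes. Its interval reaches below a log2 fold change of 1, and Casp1 was not called by glmTreat, which tests against that size (adjusted P = 0.157, where 4.32% of all tested genes were called higher).

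Casp4 (ENSMUSG00000033538.13, chr9:5308828-5336783 on the plus strand), the mouse gene of caspase-11, starts just downstream of Casp1. It had 15, 12 and 17 counts in sham mice, or 0.443, 0.359 and 0.496 CPM. In BCAS mice it had 108, 158 and 175 counts, or 3.32, 5.24 and 5.61 CPM. As for Casp1, BCAS mouse 1 was the lowest of its group, and the groups did not overlap. Casp4 changed by 3.44 on the log2 scale (standard error 0.30, 95% confidence interval 2.75 to 4.12, edgeR adjusted P = 8.43e-05). The intervals of Casp4 and Casp1 are apart, although the difference itself was not tested, and reads that fit both paralogs were not counted.

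Gsdmd (ENSMUSG00000022575.5, chr15:75862327-75867408 on the plus strand) encodes gasdermin D, the pore former that both caspases cut. Its level was 2.66, 2.51 and 2.27 CPM in sham mice, from 90, 84 and 78 counts. It was 12.1, 12.5 and 14.3 CPM in BCAS mice, from 394, 377 and 445 counts. The BCAS mice lay close together, with an SD of 1.14 CPM, and far above the sham mice. Its change of 2.38 on the log2 scale had the smallest standard error of the 8 called genes, 0.15 (95% confidence interval 2.05 to 2.72, edgeR adjusted P = 2.02e-05).

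Among the ligands, Il1a and Il1b rose, and Il18 did not pass the test. Il1a (ENSMUSG00000027399.1, chr2:129299610-129309972 on the minus strand) encodes IL-1α, an alarm signal that is active without being cut by caspase-1. It had 17, 18 and 23 counts in sham mice, or 0.502, 0.539 and 0.671 CPM. In BCAS mice it had 88, 130 and 212 counts, or 2.71, 4.31 and 6.80 CPM. The BCAS mice spread more than the sham mice, from mouse 1 as the lowest to mouse 3 as the highest, without overlap. Il1a changed by 3.00 on the log2 scale (standard error 0.37, 95% confidence interval 2.15 to 3.85, edgeR adjusted P = 5.42e-04). Its exons share 222 bases (11.2%) with the antisense gene Gm14023, which had 1 to 7 counts per library.

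Il1b (ENSMUSG00000027398.13, chr2:129364570-129371139 on the minus strand) encodes IL-1β, the best known product of caspase-1. It had 23, 8 and 9 counts in sham mice, or 0.679, 0.239 and 0.262 CPM. In BCAS mice it had 14, 87 and 95 counts, or 0.431, 2.88 and 3.05 CPM. BCAS mice 2 and 3 stood well above the sham mice, while BCAS mouse 1 lay inside the sham range and below sham mouse 1. For Il1b the log2 fold change was 2.42 with a standard error of 0.71, the widest of the 10 genes (95% confidence interval 0.80 to 4.04, edgeR adjusted P = 0.0318). This call did not hold without sham mouse 2 (adjusted P = 0.0972), sham mouse 3 (0.117), BCAS mouse 2 (0.0656) or BCAS mouse 3 (0.0995), nor with limma-voom (0.126), glmTreat (0.330) or the replicate number as a block (0.121), and over all alternatives its adjusted P ran from 9.69e-04 to 0.330.

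Il18 (ENSMUSG00000039217.13, chr9:50554827-50581840 on the plus strand) encodes IL-18, a cytokine that drives interferon-gamma in lymphocytes and is stored as a precursor in unstimulated tissue. Its level was 17.7, 15.0 and 19.3 CPM in the sham group and 18.5, 21.3 and 19.7 CPM in the BCAS group. The groups overlapped. Its difference on the log2 scale was 0.20 (standard error 0.12, edgeR adjusted P = 0.257), and the 95% confidence interval of -0.08 to 0.47 leaves out a change of the size seen in the other ligands.

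Il1rn (ENSMUSG00000026981.15, chr2:24336853-24351494 on the plus strand) encodes the IL-1 receptor antagonist. It had 4, 0 and 3 counts in sham mice, at most 0.118 CPM. In BCAS mice it had 73, 95 and 88 counts, or 2.25, 3.15 and 2.82 CPM. The antagonist was thus near the limit of detection in every sham mouse and at a like level in all 3 BCAS mice. In CPM the pooled counts, 7 against 256, were 39.6 times higher in BCAS mice, with a 95% counting interval of 18.9 to 99.5 that covers counting error only and is too narrow if mates were counted separately. The fitted log2 fold change was 5.24 (standard error 0.56, edgeR adjusted P = 2.25e-04), above 99.7% of all tested genes.

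Il1r1 (ENSMUSG00000026072.12, chr1:40225080-40317257 on the plus strand) encodes the signalling receptor for IL-1α and IL-1β. Its level was 15.6, 16.6 and 12.1 CPM in sham mice, from 530, 554 and 416 counts. It was 25.7, 19.0 and 24.3 CPM in BCAS mice, from 835, 573 and 757 counts. The groups did not overlap, but BCAS mouse 2 lay close to sham mouse 2. At 0.64 on the log2 scale (standard error 0.16, 95% confidence interval 0.28 to 0.99, edgeR adjusted P = 0.0153), its difference stayed under the fold threshold. The adjusted P was 0.0549 without sham mouse 3 and 0.05001, just above the threshold, without BCAS mouse 1, so that these mice decide whether it passes. Inside each group Il1r1 followed the order of the choroid plexus marker Ttr, which had 882, 3773 and 38.0 CPM in sham mice and 5461, 23.7 and 2930 CPM in BCAS mice. None of the 6 choroid plexus markers was called, and their summed level was 71.1 to 4093 CPM in sham mice and 40.9 to 5944 CPM in BCAS mice. With the mean level of these markers as a covariate, a fit chosen after seeing the data, the log2 fold change of Il1r1 was 0.57 (edgeR adjusted P = 0.00194). The part of choroid plexus tissue in the difference of Il1r1 was not tested.

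Levels of different genes were compared per length, as RPKM, which is CPM divided by the exon length in kilobases. Il18 led both groups, with 16.8 ± 2.10 RPKM (SD, n = 3) in sham mice and 19.3 ± 1.34 RPKM (SD, n = 3) in BCAS mice. In sham mice Il1r1 (2.32) and Casp1 (2.06) came next and overlapped, and Gsdmd (1.04) and Pycard (0.474) followed without overlap. Below them stood Il1a (0.289), Nlrp3 (0.211), Il1b (0.206) and Casp4 (0.117), where each overlapped its neighbour in the order, and Il1rn was last with 0.0124 RPKM.

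In BCAS mice Gsdmd (5.45 RPKM) lay above Pycard (3.73) and Il1r1 (3.61) without overlap, while in sham mice it had been below Il1r1. Casp1 had the highest mean below Il18 (5.71), but its libraries, at 3.99 to 6.81 RPKM, overlapped those of Gsdmd, Pycard and Il1r1. Pycard and Il1r1 overlapped with each other. Il1r1, Il1a (2.33), Nlrp3 (1.59), Casp4 (1.27), Il1b (1.11) and Il1rn (0.495) formed a series in which each gene overlapped the next. By group mean Il1rn stayed last in both groups despite its large fold change. In BCAS mouse 1, however, it lay above Il1b, at 0.406 against 0.226 RPKM.

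**Figure D2:**
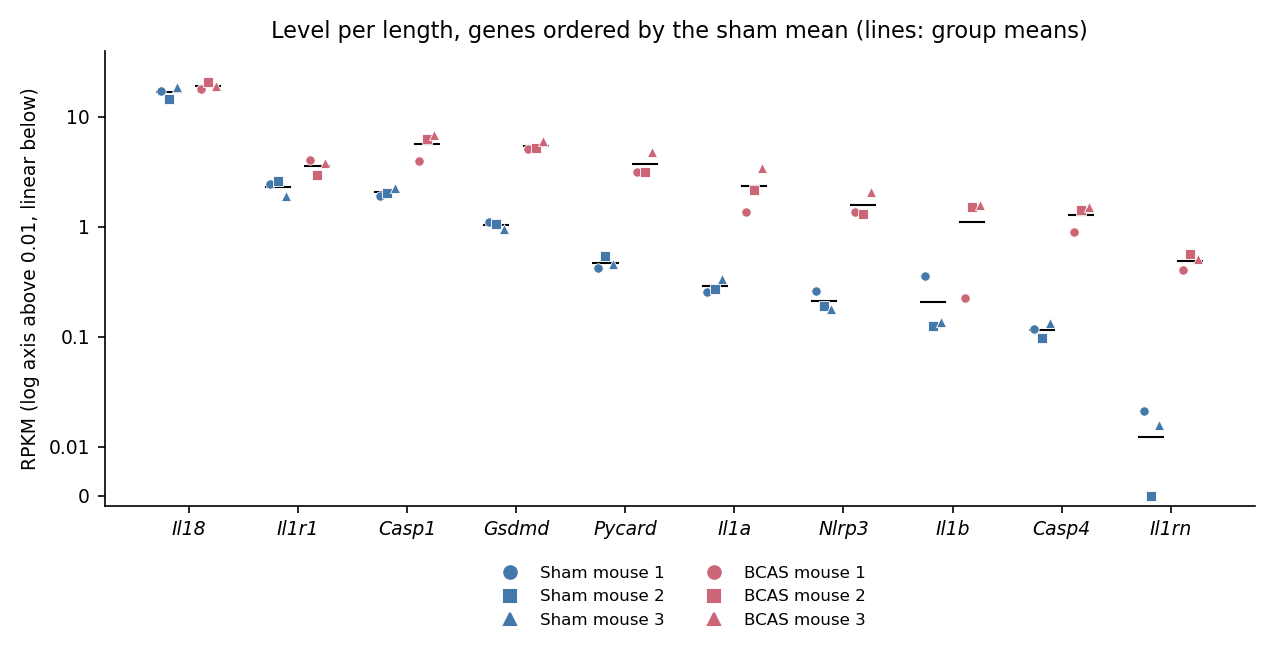
Level per length (RPKM, log axis above 0.01 and linear below) of the 10 genes, ordered by the sham mean, with 1 point per mouse and a line for each group mean. Il18 has the highest mean in both groups at 16.8 and 19.3 RPKM, and Il1rn the lowest mean at 0.0124 and 0.495 RPKM.

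Markers of the cells that make the platform rose as well. All 12 microglial markers were called higher, against 8.47% of all tested genes, with a median log2 fold change of 2.71. Their summed level was 361 to 383 CPM in sham mice and 2043 to 3254 CPM in BCAS mice. Aif1, Csf1r and Cx3cr1 changed by 3.14, 2.58 and 2.73 on the log2 scale. Called higher were also 4 of 6 markers of border macrophages (summed 10.3 to 14.8 CPM in sham, 25.7 to 33.5 CPM in BCAS mice), 4 of 5 tested markers of monocytes (53.1 to 84.0 against 112 to 196 CPM, of which Fn1 made up 52.6 to 82.9 and 107 to 185 CPM) and 5 of 6 of T cells (0.502 to 0.933 against 6.10 to 6.76 CPM). Of the monocyte markers, Ccr2 had 18, 14 and 19 counts in the sham mice against 99, 132 and 176 in the BCAS mice. Of 7 neutrophil markers 2 could be tested and 0 were called, and the defining marker Ly6g had 0 counts in every library. The sum of the 7 was 0.509 to 2.65 CPM against 0.708 to 3.45 CPM. It mixes markers with lower and markers with higher mean levels in BCAS mice, all at few counts. In bulk tissue, more cells of a type and more RNA per cell cannot be told apart, and the part of these cells in the results for the 10 genes was not tested.

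Of the markers of resident cells, 1 of 6 was called higher for astrocytes, 0 of 7 for endothelial cells and 0 of 6 for oligodendrocytes. By the adjusted P alone 5 of 6 astrocyte, 4 of 7 endothelial and 0 of 6 oligodendrocyte markers were higher, against 18.0% of all tested genes. The endothelial gene Cdh5 lay at 0.98 on the log2 scale. Endothelial markers summed to 255 to 277 CPM in sham mice and 334 to 384 CPM in BCAS mice, and their part in the difference of Il1r1 was not tested. Neuronal markers were lower at the adjusted P alone for 6 of 7, against 13.2% of all tested genes. Of 6 markers of hippocampal neurons 3 were called lower, against 0.999% of all tested genes.

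Set against the mean log2 CPM of the 12 microglial markers in the same library, the 10 genes behaved differently. This mean was 4.43 for the sham and 7.12 for the BCAS group, a difference of 2.69, and the single markers changed by 1.54 (P2ry12) to 4.33 (Trem2) on the log2 scale. For Nlrp3, Pycard and Il1a the groups overlapped, with differences between BCAS and sham mice of 0.11 (exact permutation P = 0.5), 0.22 (P = 0.3) and 0.10 (P = 0.8). With Aif1, Csf1r and Itgam as the sole markers these became -0.05, 0.06 and -0.06, with the sign turned for Nlrp3 and Il1a. When 1 mouse was left out, Nlrp3 ran from 0.0029 (without sham mouse 3) to 0.26 (without sham mouse 1). Pycard ran from 0.13 (without sham mouse 1) to 0.34 (without sham mouse 2), and Il1a from -0.0018 (without BCAS mouse 3) to 0.31 (without BCAS mouse 1). The value of Nlrp3 minus the mean was -4.28, -4.63 and -4.79 in sham mice and -4.37, -4.51 and -4.48 in BCAS mice, so that the BCAS values lay inside the sham range.

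Il1rn and Casp4 lay 1.86 and 0.56 higher relative to the marker mean in BCAS mice, without overlap, although Fcrls (3.54) and Trem2 changed more than Casp4 did. The size for Il1rn depends on the prior count of 2, since its sham counts are 4, 0 and 3, and it was 2.82 with a prior count of 0.5. Il18, Il1r1, Casp1 and Gsdmd lay lower relative to this mean, with differences of -2.49, -2.06, -1.28 and -0.34, also without overlap. The log2 fold change of Gsdmd lies inside the range of the single markers, and that of Casp1 just below it. The smaller ones rested in part on 1 mouse: Gsdmd gave -0.19 without BCAS mouse 3 and Casp4 0.37 without BCAS mouse 2. For these 6 genes the exact two-sided permutation test gave P = 0.1, the smallest that 3 mice against 3 allow. Il1b gave -0.71 (exact P = 0.6), with BCAS mouse 1 at -7.89 and the other two BCAS mice at -5.37 and -5.93, and it was 0.04 without BCAS mouse 1.

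**Figure D3:**
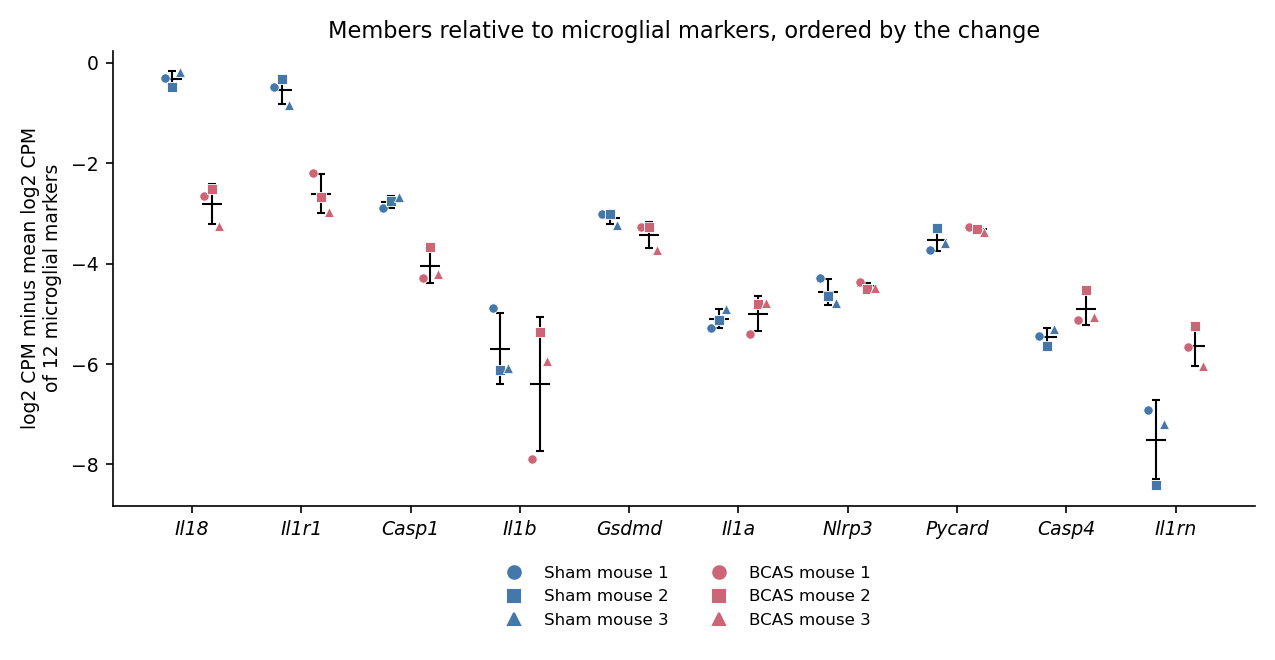
Level of each gene relative to microglial markers (log2 CPM of the gene minus the mean log2 CPM of 12 markers, vertical axis) in each library, ordered by the change, with 1 point per mouse and bars for the mean and SD of 3 mice. Il18 shows a difference of -2.49 and Il1rn one of 1.86, both without overlap, while Nlrp3, Pycard and Il1a overlap between the groups.

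Genes of inhibitors were set against genes of the ligands or the receptor they compete with, within each library. The log2 CPM of Il1rn minus that of Il1b was -2.04, -2.29 and -1.12 in sham mice and 2.23, 0.12 and -0.11 in BCAS mice. The values did not overlap, and BCAS mouse 1, with its low Il1b, was the farthest from the sham mice. The difference between the groups was 2.57 (exact permutation P = 0.1, the smallest possible). Its size depends on the prior count and on 1 mouse: it was 3.41 with a prior count of 0.5 and 1.83 without BCAS mouse 1. Il1rn against Il1a gave a difference of 1.76 (exact P = 0.1), from -1.65, -3.29 and -2.30 in sham mice to -0.26, -0.45 and -1.25 in BCAS mice, again without overlap, and with a prior count of 0.5 it was 2.63.

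Il18bp, which encodes the soluble protein that captures IL-18, lay 0.79 higher relative to Il18 in BCAS mice (exact permutation P = 0.1). Its own level was 4.99, 3.56 and 4.61 CPM in sham mice and 6.40, 8.42 and 12.1 CPM in BCAS mice, and it was called with 1.03 on the log2 scale (standard error 0.25, edgeR adjusted P = 0.0132). For the decoy receptor Il1r2 relative to Il1r1 the groups overlapped, with a difference of 0.21 (exact P = 0.9) that ran from -0.32 without BCAS mouse 2 to 0.69 without BCAS mouse 1. The sham mice had 7 to 21 counts of Il1r2 and the BCAS mice 12 to 37, and its log2 fold change of 0.97 had a 95% confidence interval of -0.32 to 2.26.

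Beyond the 10 genes, 7 lists of the same pathway held 81 genes, of which 59 could be tested. Of these, 30 were called higher and 0 lower, against 8.47% and 0.999% of all tested genes, so that 0 lower says little. Their median log2 fold change was 1.03, against 0.018 over all tested genes. The same shares apply to the counts of each list below. Of 11 other inflammasome sensors 8 were tested and 6 were called higher. Naip2, Naip5 and Naip6, which detect flagellin or parts of bacterial secretion systems for NLRC4, rose by 4.25, 3.73 and 3.31 on the log2 scale. Naip2 went from 1.30, 0.928 and 0.875 CPM in sham mice to 14.3, 18.2 and 26.9 CPM in BCAS mice. Their partner Nlrc4 had a log2 fold change of 0.41 (standard error 0.38, adjusted P = 0.462). The Naip genes are paralogs, and reads that fit several of them were not counted.

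The DNA sensor Aim2 had 4.10, 4.82 and 4.99 CPM in the sham mice against 15.9, 14.2 and 18.6 CPM in the BCAS mice (edgeR log2 fold change 1.81, adjusted P = 6.33e-05). Nlrp1a and Nlrp1b, of which the latter answers to pathogen proteases, rose by 2.09 and 2.40. Nlrp6 had a log2 fold change of -1.14 with a standard error of 0.56 (adjusted P = 0.155).

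Of 18 regulators of the platform all were tested and 12 were called higher. Zbp1, a sensor of Z-form nucleic acid that feeds cell death pathways, had 9, 1 and 2 counts in the sham mice against 196, 232 and 467 in the BCAS mice (log2 fold change 6.29, standard error 0.59, edgeR adjusted P = 1.21e-04). The guanylate-binding protein genes Gbp2 and Gbp5 and the immunity-related GTPase gene Irgb10, which open bacterial membranes for caspase-11, rose by 2.47, 2.31 and 4.85. Cybb, the oxidase subunit of phagocytes, rose by 3.97. Tlr4, the receptor whose signal primes Nlrp3, rose by 2.63, and P2rx7, the ATP-gated channel that triggers it, by 1.43.

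Casp8, Casp12, Ripk3, Mlkl and Txnip were called higher too, with Casp8 at 1.98 and Txnip, the least changed of them, at 1.10. The kinase gene Nek7, a structural partner of NLRP3, passed the adjusted P but not the fold threshold, with a log2 fold change of 0.65 (adjusted P = 0.00117), as did Card19 with 0.81 (0.00385). Panx1 (-0.38, adjusted P = 0.0554) did not pass, and Brcc3 (-0.34, adjusted P = 0.0175) passed the adjusted P alone, in the lower direction that held 13.2% of all tested genes.

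Besides Gsdmd, Gsdme was the one gasdermin gene that could be tested. Of 11 other pore formers 3 were tested and 0 were called, and 4 had 0 counts in every library. Gsdme, the gasdermin cut by caspase-3, had 25.4, 25.2 and 30.1 CPM in sham mice and 24.3, 22.0 and 24.4 CPM in BCAS mice (log2 fold change -0.19, edgeR adjusted P = 0.209). Ninj1, which tears the membrane after the pores have formed, had a log2 fold change of 0.57 (adjusted P = 0.012), and Ninj2 one of -0.13 (adjusted P = 0.808).

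Of the 6 other ligands of the IL-1 family only Il33 could be tested. Il33, an alarm signal of glial and endothelial nuclei, had 75.4, 69.6 and 75.2 CPM in sham mice and 125, 109 and 162 CPM in BCAS mice. Its log2 fold change was 0.85 (standard error 0.13, edgeR adjusted P = 0.00191), under the fold threshold. Il36g had 0 counts in 4 libraries, with 22 and 6 counts in BCAS mice 2 and 3, the mice that also had the higher Il1b.

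**Figure D4:**
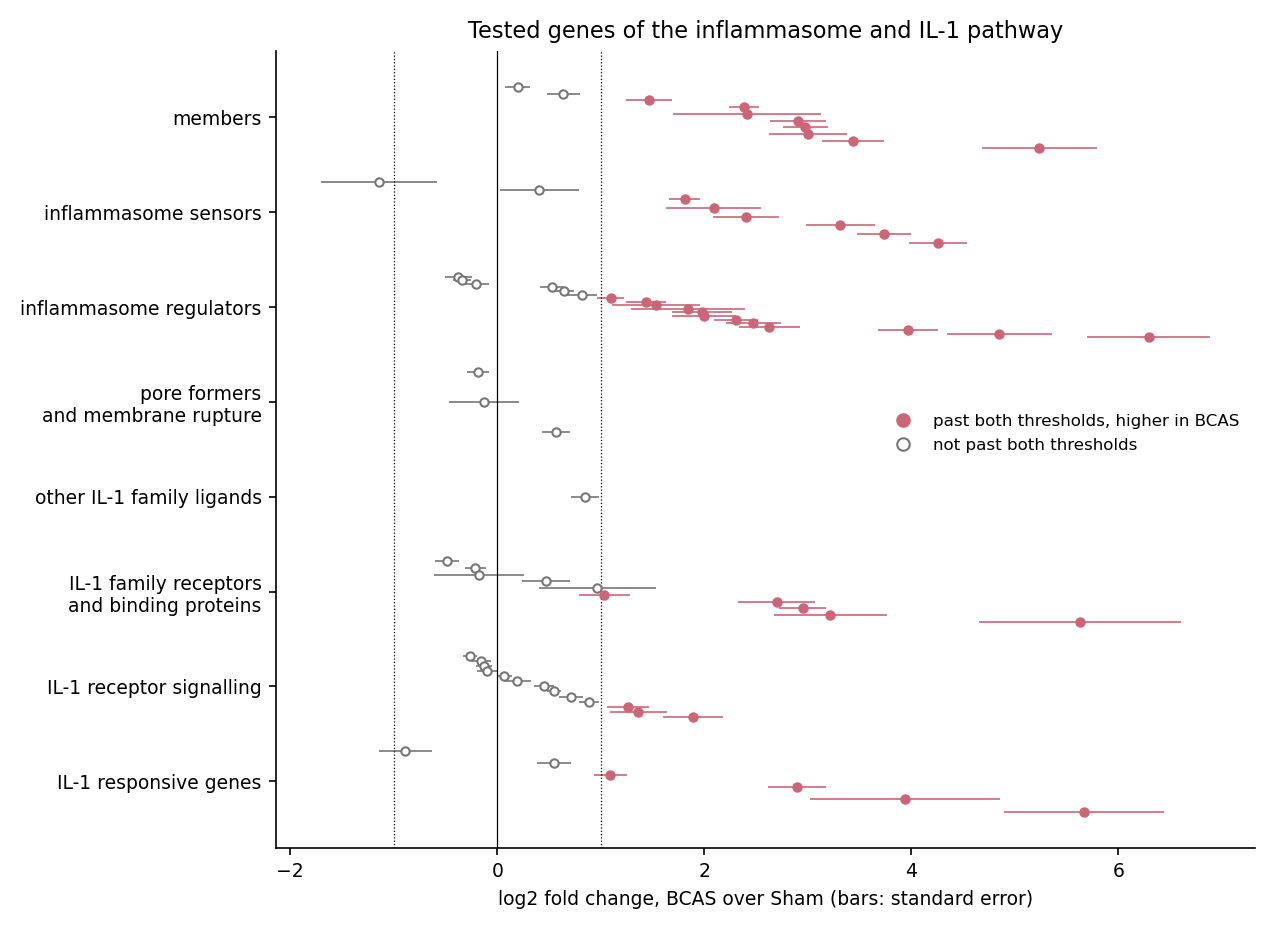
Log2 fold change of BCAS over sham (horizontal axis, bars for the standard error) for every tested gene of the pathway, by list, with filled points for genes past both thresholds. In all, 8 of the 10 members and 30 of the 59 other genes lie past the thresholds on the higher side, and 0 on the lower side.

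Of 10 other receptors and binding proteins all were tested and 5 were called higher. Il1rl1, the receptor for IL-33, had 8, 14 and 9 counts in the sham mice against 76, 45 and 68 in the BCAS mice (edgeR log2 fold change 2.70, adjusted P = 9.37e-04). Il1rl2, the receptor for the IL-36 cytokines, had 0.856, 0.599 and 0.758 CPM in sham mice and 5.11, 6.23 and 5.83 CPM in BCAS mice (log2 fold change 2.95, adjusted P = 4.43e-05). The receptor chains for IL-18 rose while Il18 itself did not pass: Il18rap by 3.22 on the log2 scale, and Il18r1 from 0, 0 and 2 counts to 12, 42 and 54 counts, at least 13.1-fold higher against a limit of 3 counts per sham library, a bound that would be lower if both mates of a pair were counted. Il1rap, the shared accessory chain that IL1R1 needs, had a log2 fold change of -0.21 (adjusted P = 0.139), Sigirr one of 0.47 (0.153) and Il1rapl1 one of -0.48 (0.0127).

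Of 13 genes that carry the signal inside the cell all were tested and 3 rose: the adaptor gene Myd88 by 1.26, the kinase gene Irak4 by 1.89 and Irak3, which encodes an inhibitory kinase homologue, by 1.36. Irak2 (0.88, adjusted P = 3.03e-04) and Irak1 (0.45, adjusted P = 0.00908) passed the adjusted P alone. Traf6 had a log2 fold change of 0.19 (adjusted P = 0.300) and Tollip, which dampens the pathway, one of -0.26 (adjusted P = 0.0215).

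Of 12 genes that IL-1 is known to induce, 6 were tested, 4 were called higher and 0 lower. Lcn2, an iron-binding protein of reactive astrocytes, had 6, 4 and 27 counts in the sham mice against 166, 785 and 774 in the BCAS mice (edgeR log2 fold change 5.67, standard error 0.77, adjusted P = 8.96e-04). The chemokine gene Ccl2 had 12, 0 and 4 counts in the sham mice against 23, 61 and 146 in the BCAS mice (log2 fold change 3.94, standard error 0.92, adjusted P = 0.012). In both, BCAS mouse 1 was the lowest of its group, as it was for Il1b and Il1a. This was not particular to IL-1 and the genes it induces. BCAS mouse 1 was also the lowest for Casp1, Casp4, Gsdmd, Il18 and Il1rn, though not for Nlrp3 or Il1r1. Its mean log2 CPM of the microglial markers was 6.87, beside 6.93 and 7.56 in BCAS mice 2 and 3.

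The adhesion genes Icam1 and Vcam1 rose by 2.90 and 1.09. BCAS mouse 1 had 13.4 CPM for Icam1 beside 13.6 and 25.5 CPM in the others, and for Vcam1 it was not the lowest. Ptgs2, the prostaglandin synthase of neurons and glia, had 29.0, 28.2 and 25.6 CPM in sham mice and 22.0, 12.9 and 9.59 CPM in BCAS mice (log2 fold change -0.89, adjusted P = 0.0282, not called). Nfkbiz had a log2 fold change of 0.54 (adjusted P = 0.0346). Cxcl1 and Il6 had too few counts to test, with 8, 24 and 38 counts and 10, 5 and 4 counts in BCAS mice. Saa3, singled out after its values were seen, had at most 1 count in a sham mouse and 5, 381 and 79 counts in BCAS mice 1 to 3, and it did not pass the filter.

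**Figure D5:**
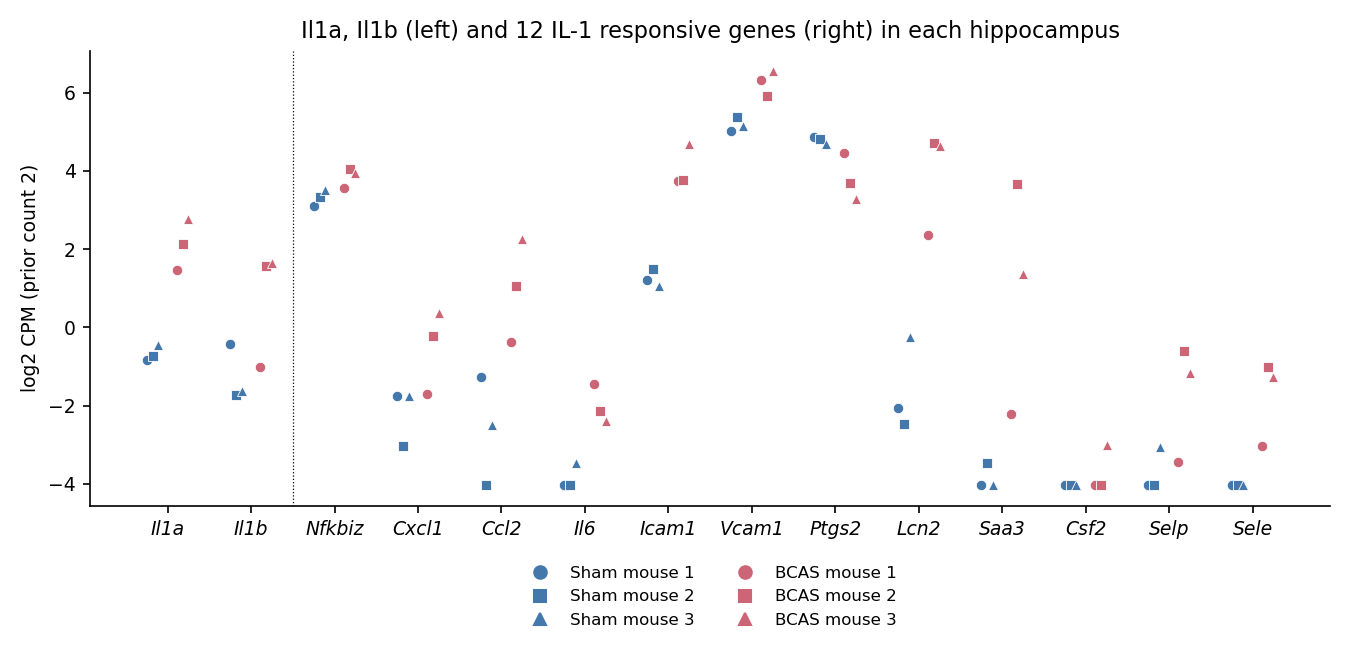
Level of Il1a, Il1b and 12 genes induced by IL-1 in each library, as log2 CPM with a prior count of 2 on the vertical axis, with 1 point per mouse. BCAS mouse 1 is the lowest BCAS mouse for Il1a, Il1b, Nfkbiz, Cxcl1, Ccl2, Icam1, Lcn2, Saa3, Selp and Sele, but not for Il6, Vcam1 or Ptgs2.

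The genes whose pattern over the 6 libraries was most like that of 3 members were found among 15630 tested genes with a mean of at least 1 CPM, by the root mean square difference of log2 CPM relative to the sham mean. For Nlrp3 they were Dock8 (0.070), Clec5a (0.095) and Lrmp (0.11). For Casp1 they were Acer2 (0.086), Gldn (0.11) and Ftl1 (0.13). For Il1b no gene came as close, and the nearest were Gpr35 (0.54), Pirb (0.60) and Xdh (0.65). Il1b had 8 to 23 counts in sham mice and 14 in BCAS mouse 1, where counting error is large on the log2 scale. Its part in these distances was not tested. Gpr35 had 1.38 CPM in BCAS mouse 1 and 3.35 and 4.36 CPM in the others, above all sham mice, which reached 0.708 CPM. The measure describes these 6 libraries and carries no test.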

How the data were processed

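RNA-seq libraries of 3 sham and 3 BCAS mice were used and assigned by their labels. Mice are numbered 1 to 3 by the labels, but the headers inside the BCAS tables number the same libraries from 2 upward. The authors trimmed the reads, aligned them with HISAT2 to mm10 and deposited the raw featureCounts count of each gene with its exon length. The submitters' processing notes name featureCounts 1.6.3 and the file headers name 2.0.3 with GENCODE vM20. By the headers, strand was not used and multimapping reads were left out. The option for paired reads was set, without one for counting pairs, so a fragment may have been counted once for each mate. Of 54752 genes, 29 had no symbol.

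The 10 genes, the lists and the tests were chosen with earlier results of these data known. Counts were filtered with filterByExpr, scaled by TMM and tested with edgeR 4.0.16 (glmQLFTest, R 4.3.3), with Benjamini-Hochberg adjustment over 18617 genes. Standard errors were taken from the F statistics, and log2 CPM used a prior count of 2. RPKM used the deposited lengths. The BCV was 0.161. The steps were tested on simulated data. Nothing says that mice shared a litter or cage, so each mouse counts as 1 replicate. Named were the 10 genes, genes of the pathway lists past both thresholds and at most 4 per list that were not, defining markers, and the 3 nearest genes of Nlrp3, Casp1 and Il1b. Saa3, singled out after its values were seen, and genes named only in a figure caption came in addition. Alternatives were DESeq2 1.42.0, limma-voom (limma 3.58.1), RLE factors, library totals, other filters, no fold threshold, glmTreat, halved counts, the replicate block, leaving out each mouse, another prior count and a shorter marker list. A choroid plexus covariate was added after seeing the data.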

Additional observations from a re-analysis of the deposited data

How the results depend on the processing

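Nlrp3, Pycard, Casp4, Gsdmd, Il1a and Il1rn were called under all 17 alternatives to the edgeR fit, and no gene of the 10 changed the direction of its log2 fold change. The number of the 10 that passed ran from 6 with glmTreat to 9 with no fold threshold, which adds Il1r1, and from 7 to 8 when 1 mouse was left out. The gene lost in each of the latter was Il1b, and glmTreat lost Casp1 as well. The labels do not say that replicate numbers mark pairs of mice. Residual correlations of same-numbered mice were 0.036, -0.314 and -0.158, which cannot decide whether mice were paired. With the replicate block, 7 of the 10 were called, Il1b having a log2 fold change of 2.21 (edgeR adjusted P = 0.121). Pathway genes called higher, 30 as reported, were 20 with glmTreat, 40 with no fold threshold and 25 to 33 when 1 mouse was left out. Pathway genes called lower, 0 as reported, were 0 to 1 when 1 mouse was left out, with the 1 arising without BCAS mouse 1, and 4 with no fold threshold. Marker genes called lower, 3 as reported, were 1 with glmTreat and 9 with no fold threshold. Relative to the microglial mean, the difference of Pycard was 0.060 with 3 markers, and the small differences of Nlrp3 and Il1a turned to -0.05 and -0.06. That of Il1a was -0.0018 without BCAS mouse 3, and that of Il1b 0.04 without BCAS mouse 1. Il1r2 relative to Il1r1 turned to -0.19 without sham mouse 2 and -0.32 without BCAS mouse 2. Il1r1 did not pass the adjusted P without sham mouse 3 (0.0549) or BCAS mouse 1 (0.05001). With a prior count of 0.5 the difference of Il1rn from the microglial mean was 2.82 and that of Il1rn from Il1a was 2.63. The cause was not tested, beyond the weight that a prior count has at the 0 to 4 counts of Il1rn in sham mice. Library totals moved the median of all tested genes from 0.018 to 0.095. With 3 mice per group an exact test cannot go below P = 0.1, and genes near 3 counts cannot be placed in order.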
